A study of Mus musculus with 12 samples.

Results

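CpA methylation, that is, methylation of a cytosine whose next base on its own strand is adenine, was followed at 591 single cytosines in 12 autosomal loci of mouse embryonic stem cells. The cytosines were those with a following A in the mm9 reference and with at least 10 read-outs in all 12 samples, and they were taken from 2428 genomic cytosines of all contexts that met the same coverage rule. Each read covering a cytosine gives either a C or a T read-out, and the C share of a cytosine is the percentage of its read-outs that were C. Of 666 autosomal CpA cytosines with a value in any sample, 75 were outside the rule, 40 of them in the Twist2 locus, which was not covered in every sample.

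The study applied targeted bisulfite sequencing (BS-seq) and oxidative bisulfite sequencing (oxBS-seq) to parental V6.5 mouse embryonic stem cells (v6.5, wild type) and to V6.5 cells stably depleted of Tet2 by an shRNA plasmid (Tet2kd), with 3 replicates per genotype and assay. The Tet2kd cells came from electroporation with pSUPER-puro-Tet2shRNA, puromycin selection on SNL76/7-4 feeder cells and the picking of individual clones, so a clone and the depletion cannot be told apart; the sources used here do not say how many clones the replicates represent. Both genotypes were grown in serum with LIF, and the sample titles of the parental cells also carry the word knock-down, whereas their genotype label is wild-type. The genomic DNA of a replicate was divided equally between the assays, and the targets were amplified by PCR, so read-outs were not independent molecules and intervals on them cover counting error only.

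In mammals the maintenance methyltransferase Dnmt1 copies CpG methylation to the new strand after replication, whereas CpA has no matching cytosine on the opposite strand and is methylated by the de novo enzymes Dnmt3a and Dnmt3b. Non-CpG methylation, most of it at CpA, is a known feature of embryonic stem cells, oocytes and neurons. Tet enzymes, Tet2 among them, oxidise 5-methylcytosine (5mC) to 5-hydroxymethylcytosine (5hmC). In BS-seq both 5mC and 5hmC are read as C. In oxBS-seq 5mC is read as C, together with any 5hmC that escaped oxidation. In both assays an unconverted cytosine is also read as C. The study estimated that oxidation was incomplete, varied between these samples and was more efficient in Tet2kd. The C shares given here were not corrected for it.

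Of the 10 CpA cytosines with the highest mean C share over the 12 samples, 9 are shown in descending order, and the highest CpA cytosine of the Igsf21 locus, which held the most cytosines called between genotypes, follows them, to make visible the bases around the strongest signals. Sequences are from the mm9 reference, 5′ to 3′ on the strand of the cytosine, with the cytosine and its following A in capitals.
Letmd1, chr15:100300271-100300295, minus strand: attcgggcttctCAatgttagcgtt
Zbtb40, chr4:136547402-136547426, minus strand: gcacaccttccaCAgtacgtactac
Runx1, chr16:92644704-92644728, plus strand: tccctctcccttCAcccccaaggtg
Zbtb40, chr4:136547411-136547435, minus strand: catccacctgcaCAccttccacagt
Plcg2, chr8:120115799-120115823, plus strand: aagagagagttcCAggccatccctg
Pvt1, chr15:61868749-61868773, plus strand: actagagacgtgCAcctgttcggtg
Zbtb40, chr4:136547413-136547437, minus strand: tccatccacctgCAcaccttccaca
N4bp1, chr8:89376877-89376901, minus strand: tatggttgcgcaCAcctgtggtgtc
Pvt1, chr15:61868811-61868835, plus strand: gcgtgcctttcaCAccagccttcgt
Igsf21, chr4:139783682-139783706, plus strand: gacctctacatgCAcaccgccatgc
Among the 10 highest cytosines, the CpA was followed by C in 6, by G in 3, by A in 1 and by T in 0, and 3 of the 10 lay in Zbtb40 and 2 in Pvt1. The base after each cytosine was taken from the reference and was not read in the V6.5 cells, whose strain background differs in part from that of the reference.

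CpA cytosines carried a low C share that was nevertheless above that of the other non-CpG cytosines in each of the 12 samples. The mean CpA C share of a sample was between 0.952% and 1.29%, against 0.424% to 0.572% at 594 CpT cytosines, 0.231% to 0.317% at 509 CpC cytosines and 59.9% to 76.5% at 304 CpG cytosines. The 26 cytosines of the unmethylated lambda control, a measure of incomplete conversion and misreading, had means of 0.141% to 0.401%. The CpA share exceeded the share of CpC and CpT cytosines together by 0.737 percentage points in BS-seq, in 6 of 6 samples (exact sign-flip permutation test, two-sided, p = 0.031). In oxBS-seq the excess was 0.694 percentage points, also in 6 of 6 samples (exact sign-flip permutation test, two-sided, p = 0.031). That is the smallest value the exact test can give with 6 samples. All samples measure the same cytosines, so this and the later sign-flip tests cover the spread between samples, not that between cytosines or loci. Without cytosines that reached 10% in any sample the excess was 0.480 in BS-seq and 0.436 in oxBS-seq (exact permutation p = 0.031 each). With the median over cytosines in place of the mean, the BS-seq excess was 0.205 (exact permutation p = 0.031), and the oxBS-seq excess was 0.0225 percentage points and did not pass (exact permutation p = 0.34).

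**Figure D1:**
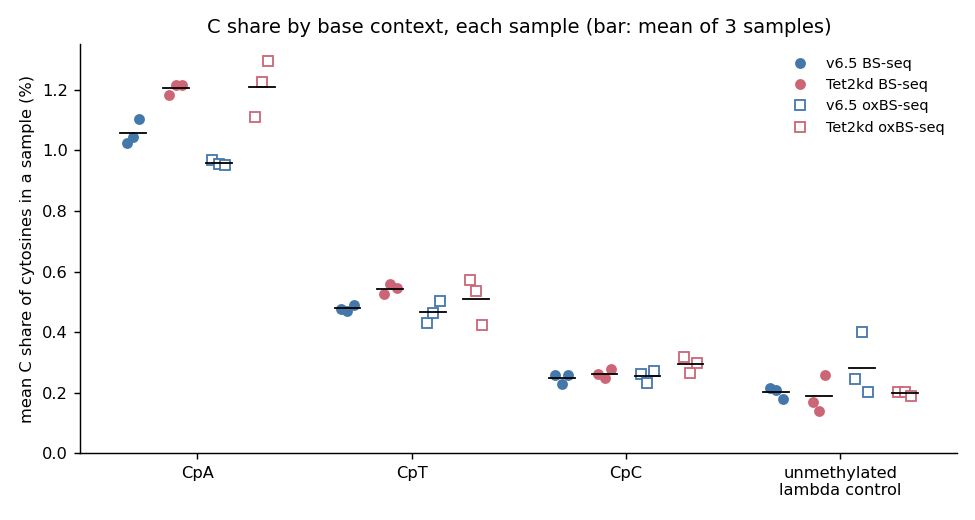
Mean C share in percent (vertical axis) of CpA, CpT and CpC cytosines of the autosomal loci and of the unmethylated lambda control, 1 point per sample, with bars at the mean of 3 samples of a genotype and assay. All 12 CpA points, from 0.952% to 1.29%, sit above the CpT points, of which the highest is 0.572%.

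The excess was carried by a minority of cytosines. The all-sample mean share of a CpA cytosine had a median of 0.433% and an upper quartile of 1.16%, and the highest reached 33.0%. For CpC and CpT cytosines the same values were 0.221%, 0.321% and 35.6%. A mean share above 1% was found at 167 of 591 CpA cytosines (28.3%), 38 of 594 CpT cytosines (6.40%) and 10 of 509 CpC cytosines (1.96%). Above 5% there were 23 CpA cytosines in 8 loci, 6 CpT and 1 CpC, and above 10% there were 7 CpA cytosines, 3 CpT and 0 CpC. Within a sample, the 10 highest CpA cytosines made up 21.5% to 29.2% of the summed share. Of the CpA cytosines, 12 gave no C read-out in any sample, and 247 gave at least 1 in all 12 samples. Within a sample, 12.5% to 38.7% of CpA cytosines gave no C read-out, against 14.3% to 42.8% of CpC and CpT cytosines.

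Total genomic read-outs of a sample ranged from 4505229 to 18096597 and the median coverage of the CpA cytosines from 567 to 3577 read-outs. At 1808 read-outs, the median over all cytosines and samples, 18 C read-outs give 0.996% with a 95% Wilson interval of 0.631% to 1.57%, and a count of 0 allows a share of up to 0.166%. At the minimum of 10 read-outs a count of 0 allows up to 30%; 494 cytosines had at least 100 read-outs in all samples and 183 had at least 1000.

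Letmd1 encodes a mitochondrial inner membrane protein, and the locus overlaps its coding sequence. The highest CpA cytosine lay in this locus, at chr15:100300283. Its C share in BS-seq was 22.6%, 27.3% and 30.2% in the v6.5 samples and 44.2%, 51.9% and 52.5% in the Tet2kd samples. In oxBS-seq the v6.5 samples gave 24.4%, 19.9% and 26.3%, and the Tet2kd samples 25.5%, 36.7% and 34.6%. The genotypes did not overlap in BS-seq and overlapped in oxBS-seq. Its coverage was 1123 to 10577 read-outs. In BS-seq the log2 ratio of C to T read-outs was 1.62 higher in Tet2kd (edgeR quasi-likelihood test, adjusted p = 1.66e-06), and in oxBS-seq it was 0.59 higher without passing (edgeR adjusted p = 0.317). The rest of the locus was low: without this cytosine the mean CpA share of Letmd1 over all samples was 0.410%, against 1.27% with it.

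Zbtb40, a zinc finger protein gene, held a group of high CpA cytosines in a locus that overlaps its coding sequence. The highest, chr4:136547414, had 18.9%, 18.4% and 19.6% in v6.5 BS-seq and 24.5%, 24.97% and 20.6% in Tet2kd BS-seq, and its oxBS-seq values ran from 14.4% to 30.6%. It lay 95 bp from the first covered cytosine of the locus, close to the other 2 Zbtb40 cytosines of the 10 at 104 bp (chr4:136547423, BS-seq mean 12.4% in v6.5, 13.4% in Tet2kd) and 106 bp (chr4:136547425, 10.5% and 12.3%). Neither genotype was called higher at any of the 3 (edgeR adjusted p of 0.222, 0.914 and 0.541 in BS-seq and 0.923, 0.327 and 0.0511 in oxBS-seq). At chr4:136547425 the oxBS-seq mean was 13.3% in v6.5 and 10.5% in Tet2kd, without overlap and opposite to BS-seq. At the other 2 the oxBS-seq mean was higher in Tet2kd, with overlap (20.3% against 23.0%, and 11.5% against 18.5%). Of the 79 CpA cytosines of the locus, 37 had a mean share above 1% and 9 above 5%, and those above 1% spread from 57 to 435 bp from the first covered cytosine. The minus strand, with 31 cytosines, averaged 3.16% and the plus strand, with 48, averaged 1.45%.

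**Figure D2:**
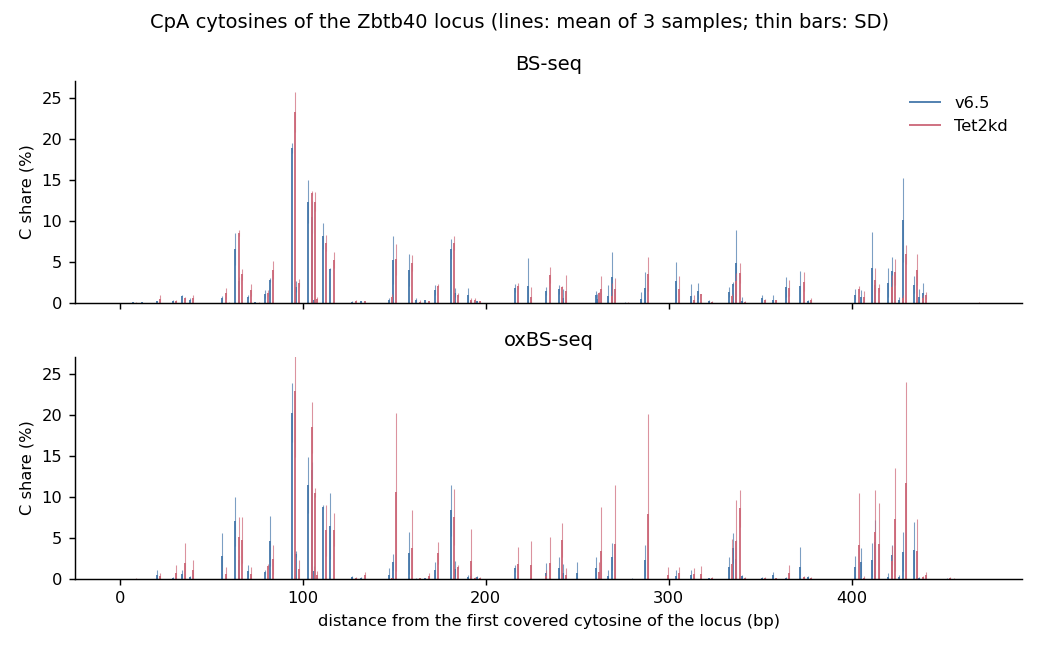
C share in percent (vertical axis) of the 79 CpA cytosines of the Zbtb40 locus by distance in bp from the first covered cytosine, BS-seq above and oxBS-seq below, with lines at the mean of 3 samples and thin bars for the SD. The tallest lines, at 95 bp, are 18.98% for v6.5 and 23.3% for Tet2kd in BS-seq, and the error bars are wider in oxBS-seq.

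Other cytosines of the 10 differed in how steady they were. At Pvt1, a long non-coding RNA gene close to Myc, chr15:61868761 ranged from 11.01% to 12.2% in v6.5 BS-seq and from 12.1% to 13.1% in Tet2kd BS-seq, so the genotypes overlapped. At Runx1, which encodes a transcription factor of blood development, chr16:92644716 had 13.9% to 23.8% over the 6 BS-seq samples, but 35.7%, 30.9% and 0% in v6.5 oxBS-seq and 2.96%, 0.552% and 3.85% in Tet2kd oxBS-seq. Its coverage was 36 to 467 read-outs, the lowest of the 10. At Plcg2, encoding phospholipase C gamma 2, chr8:120115811 had BS-seq means of 11.9% in v6.5 and 15.3% in Tet2kd, without overlap. No adjusted p of these 3 passed in either assay (edgeR, 0.105 to 0.801). Those in N4bp1 (chr8:89376889) and Pvt1 (chr15:61868823) had means over all samples of 9.13% and 8.21%, and their genotypes overlapped in both assays. In the other 5 loci the highest CpA cytosine was lower, with 4.11% in Igsf21, 3.40% in Gm11949, 5.08% in Klf3 (chr5:64987431), 2.94% in Stag1 (chr9:100498517) and 2.76% in Hsp90ab1 (chr17:45706778).

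**Figure D3:**
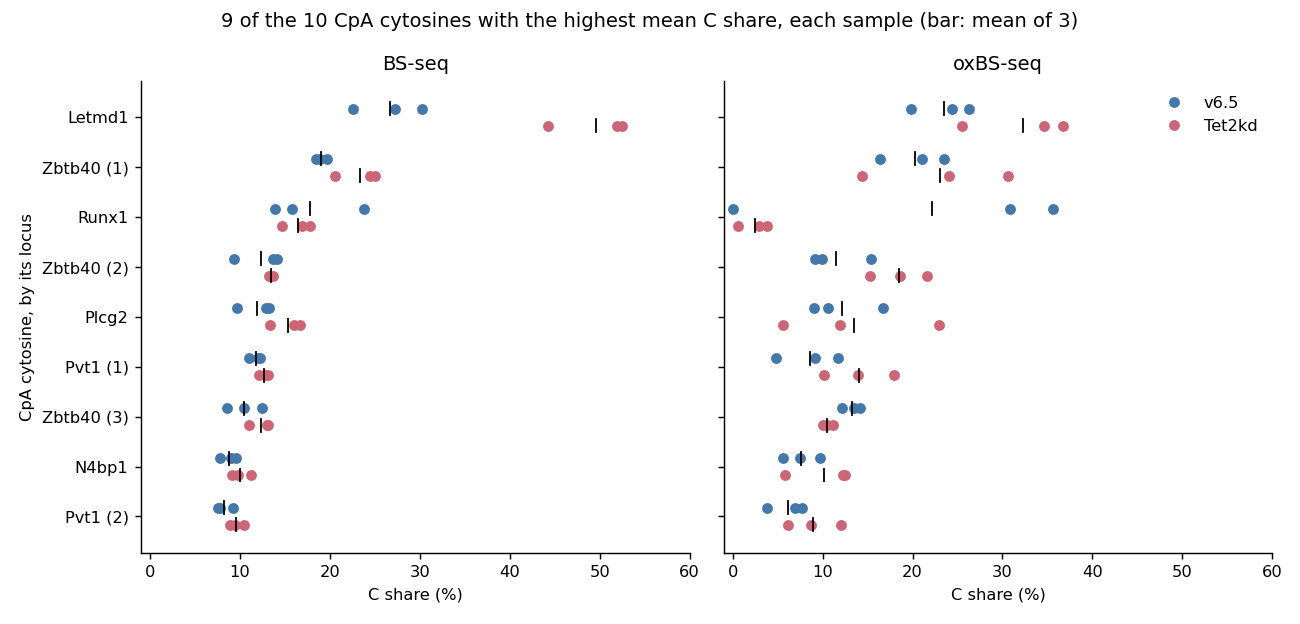
C share in percent (horizontal axis) of 9 of the 10 CpA cytosines with the highest mean share, named by locus and in descending order, with 1 point per sample and bars at the mean of 3; BS-seq is left and oxBS-seq right. The Letmd1 cytosine is the only one of the 9 with a wide gap between genotypes in BS-seq (26.7% against 49.5%), and the Runx1 cytosine ranges from 0% to 35.7% in v6.5 oxBS-seq.

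Replicates were far closer in BS-seq than in oxBS-seq. Across the 591 cytosines, which share libraries and loci, the Spearman correlation between replicates of a group was 0.699 to 0.857 in BS-seq but 0.503 to 0.604 in oxBS-seq. The variance between replicates divided by the binomial variance had a median of 1.66 in BS-seq and 5.54 in oxBS-seq, and at the cytosines with means above 1% it was 2.65 and 18.5. The highest cytosine of Gm11949, chr11:3525801, had 1.73%, 11.49% and 0.788% in the Tet2kd oxBS-seq replicates, at a coverage of 3362 read-outs or more. Single cytosines are therefore described below from BS-seq first, and oxBS-seq values stand beside them.

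The base after the CpA moved with the C share. In BS-seq the mean over CAC cytosines was 1.47% to 1.78% in the 6 samples, that over CAG 0.966% to 1.29%, that over CAA 0.685% to 1.05% and that over CAT 0.649% to 0.785%. CAC exceeded the other CpA cytosines by 0.720 percentage points in BS-seq and 0.691 in oxBS-seq, in 6 of 6 samples of each assay (exact sign-flip permutation test, two-sided, p = 0.031 each), a contrast that was chosen after the values were seen. This difference was 0.384 and 0.352 without cytosines that reached 10%, and 0.225 and 0.0946 with the median. CAG did not differ from the other CpA cytosines in a steady direction: the difference was 0.0037 percentage points in BS-seq, above 0 in 3 of 6 samples (exact permutation p = 0.97), and -0.0115 in oxBS-seq, above 0 in 2 of 6 (exact permutation p = 0.88). Its sign depended on the setting: with the median over cytosines it was 0.134 percentage points in BS-seq, and with at least 1000 read-outs per cytosine it was -0.476, both with p = 0.031 in the exact permutation test. A mean share above 1% was found at 62 of 159 CAC (39.0%), 59 of 188 CAG (31.4%), 25 of 131 CAA (19.1%) and 21 of 113 CAT cytosines (18.6%).

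The base before and the second base after also went with the share. In BS-seq, CpA cytosines preceded by A had means of 1.64% to 1.99%, against 0.886% to 1.02% after C, 0.800% to 1.02% after G and 0.734% to 0.985% after T. Within CAC, those followed by C averaged 2.98% to 3.65%, those followed by T 1.30% to 1.58%, those followed by A 1.04% to 1.49% and those followed by G 0.197% to 0.566%. The latter have a CpG within their own 4 bases. At CpC and CpT cytosines a preceding A did not go with a higher share, with 0.185% to 0.238% for ACC and 0.384% to 0.672% for ACT in BS-seq. These cytosines share loci, and the high ones weigh on a mean, so the context values are given as a description.

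Distance to a CpG and strand were also compared as a description. The 133 CpA cytosines more than 25 bp from the nearest covered CpG cytosine had means of 0.658% to 0.772% in BS-seq. Those 4 to 10 bp away (199) had 1.12% to 1.51%, those 11 to 25 bp away (166) 1.22% to 1.41% and those within 3 bp (93) 0.914% to 1.16%. The 294 plus-strand cytosines had means of 1.04% to 1.16% and the 297 minus-strand cytosines 1.00% to 1.28%, ranges that overlap.

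By locus, the mean CpA share over all samples ran from 0.552% to 2.12%. The coding sequences and exons named are those that a locus overlaps, in whole or in part. Zbtb40 was the highest at 2.12%, with a CpG share of 93.4%. Plcg2 followed at 1.39% (intron, CpG 85.3%), with Letmd1 at 1.27% (coding sequence, CpG 46.0%), Pvt1 at 1.16% (736 bp upstream of the gene start, CpG 68.0%) and Runx1 at 1.03% (coding sequence, CpG 54.9%). The locus named after Klf3, a transcriptional repressor gene, at 0.962% (intergenic, CpG 65.5%), N4bp1 at 0.915% (coding sequence, CpG 79.0%), Igsf21 at 0.911% (intron, CpG 60.2%) and Hsp90ab1 at 0.796% (coding sequence of the cytosolic chaperone Hsp90 beta, CpG 62.6%) formed the middle. Stag1, a cohesin subunit gene measured at its 5′ UTR exon, had 0.612% (CpG 70.7%), and Gm11949, a predicted gene measured at an exon, had 0.552% (CpG 63.8%). In v6.5 BS-seq the 3 Zbtb40 samples, at 1.93% to 2.04%, lay above the highest Plcg2 sample at 1.65%, whereas Plcg2 and Letmd1, at 1.35% to 1.65% and 1.10% to 1.28%, were separated by less than the range of either. Runx1 and Plcg2 also had the highest CpC and CpT shares, 0.981% and 0.851%, against 0.210% to 0.419% in the other 10 loci. In Runx1 the CpA share was thus 1.03%, beside 0.981% at its CpC and CpT cytosines. Of the 594 CpT cytosines, 2 had a mean share above 20%, both in the same locus. How far single high cytosines set these locus means was not tested.

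Each of the 12 loci had CpA cytosines above 1%. They made up 37 of 79 in Zbtb40 (46.8%), 13 of 37 in Plcg2 (35.1%), 17 of 53 in Igsf21 (32.1%) and 16 of 51 in Hsp90ab1 (31.4%), but 8 of 51 in Gm11949 (15.7%) and 4 of 38 in Letmd1 (10.5%). Letmd1 therefore had a high mean from few cytosines, and Igsf21 a lower mean from many.

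Loci with a higher CpG share tended to have a higher CpA share in v6.5. Over the 12 locus means, which come from the same libraries, Pearson's r between the CpA and the CpG share was 0.58 in v6.5 BS-seq and 0.54 in v6.5 oxBS-seq, with Spearman's rho of 0.46 and 0.38. In Tet2kd the r was 0.18 in BS-seq and 0.59 in oxBS-seq, with rho of 0.12 and 0.57. Without cytosines that reached 10% in any sample, which left 562, the r in Tet2kd BS-seq was 0.37, but that of the CpC and CpT share was 0.42 and that of the CpA excess over it 0.12. In the same order these r were 0.67, 0.52 and 0.60 in v6.5 BS-seq and 0.68, 0.56 and 0.53 in v6.5 oxBS-seq. In Tet2kd oxBS-seq they were 0.58, 0.61 and 0.31. With all cytosines the r of the CpC and CpT share was 0.07 in v6.5 BS-seq and 0.12 in v6.5 oxBS-seq. The difference between genotypes in CpA share and that in CpG share had r of 0.76 and rho of 0.76 in BS-seq, and r of 0.20 and rho of 0.32 in oxBS-seq. Without the cytosines reaching 10% these r were 0.71 and 0.73. These values describe 12 points and carry no test.

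**Figure D4:**
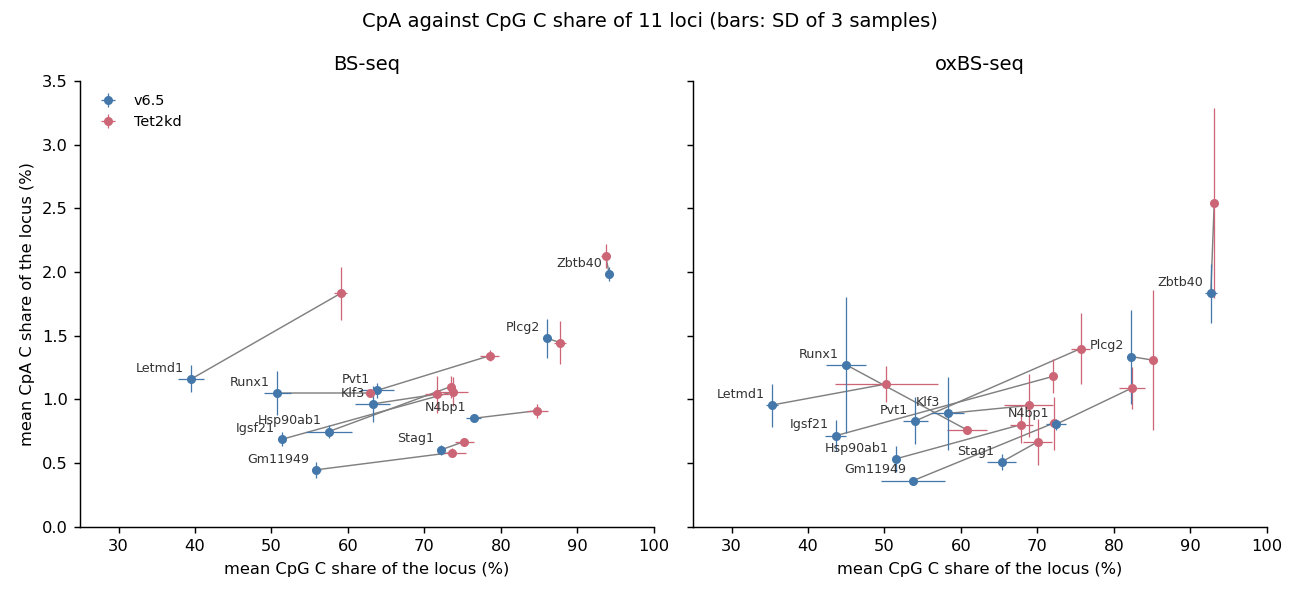
Mean CpA C share (vertical axis, percent) against mean CpG C share (horizontal axis, percent) of 11 loci, with a grey line from the v6.5 to the Tet2kd point of a locus and bars for the SD of 3 samples; BS-seq is left and oxBS-seq right. Igsf21 moves from 51.4% CpG and 0.687% CpA to 73.8% and 1.06% in BS-seq, whereas Zbtb40 stays near 94% CpG.

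The Tet2kd samples had a higher mean CpA share than the v6.5 samples in both assays. In BS-seq the 3 v6.5 samples had 1.02%, 1.04% and 1.10% and the 3 Tet2kd samples 1.18%, 1.22% and 1.22%. In oxBS-seq the v6.5 samples had 0.967%, 0.953% and 0.952% and the Tet2kd samples 1.11%, 1.22% and 1.29%. Groups did not overlap in either assay. The difference was 0.148 percentage points in BS-seq (1.06% ± 0.042 against 1.205% ± 0.019, SD, n = 3; exact permutation test, two-sided, p = 0.10) and 0.252 in oxBS-seq (0.957% ± 0.0081 against 1.21% ± 0.093, SD, n = 3; exact permutation p = 0.10). With 3 against 3 samples p cannot go below 0.1, so the test could not pass 0.05. CpC and CpT cytosines together were also higher in Tet2kd in BS-seq, with 0.360% to 0.383% against 0.405% to 0.423%, and their part in the result was not tested. After subtraction of that share in each sample the difference was 0.106 percentage points in BS-seq and 0.209 in oxBS-seq, again with no overlap (exact permutation p = 0.10 each). The size depended on how cytosines were weighted: in BS-seq the difference was 0.0713 with the median over cytosines, 0.305 with summed read-outs and 0.360 with at least 1000 read-outs per cytosine, and the difference after subtraction was 0.0381, 0.257 and 0.310, or 0.0680 without the highest Letmd1 cytosine. With the median the oxBS-seq difference was -0.0449, that is, lower in Tet2kd.

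The higher oxBS-seq mean of Tet2kd went with more cytosines above 5%. A share above 5% was found at 35, 36 and 42 CpA cytosines in the Tet2kd oxBS-seq samples and at 19, 22 and 25 in the v6.5 ones. In BS-seq these counts were 20, 23 and 27 (Tet2kd) against 19, 26 and 26 (v6.5), and so overlapped. Above 1%, BS-seq gave 168, 174 and 174 cytosines in Tet2kd against 153, 154 and 158 in v6.5, whereas in oxBS-seq 141, 151 and 177 (Tet2kd) overlapped with 123, 135 and 154 (v6.5).

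Over the 591 cytosines, 55 (9.31%) were higher in every Tet2kd BS-seq sample than in every v6.5 one and 17 (2.88%) were lower, against 15.1% and 2.39% of all 2428 cytosines. For CpC and CpT cytosines the shares were 7.16% and 2.63%, and for CpG cytosines 65.8% and 0.658%. In oxBS-seq 25 CpA cytosines (4.23%) were higher and 28 (4.74%) lower, against 10.8% and 3.42% of all cytosines. The CpA shares thus lay nearer to those of CpC and CpT than to those of CpG.

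Of 563 CpA cytosines tested in BS-seq, 18 were called (3.20%), 17 of them higher in Tet2kd (3.02%) and 1 lower (0.178%) (edgeR quasi-likelihood test on C and T counts, adjusted p under 0.05 over all 2331 cytosines tested), against 10.5% of all cytosines (10.3% higher, 0.172% lower). In oxBS-seq 6 of 557 were called (1.08%), 2 higher and 4 lower, against 5.73% of all cytosines (5.39% higher, 0.345% lower). No CpA cytosine was called in both assays. These counts depended on how the dispersion was specified: a negative binomial dispersion, the first specification run, called 5 CpA cytosines in BS-seq, all higher, and 0 in oxBS-seq (33 at an unadjusted p under 0.05). The present specification replaced it after those counts had been seen, because the first recovered fewer known differences in simulated data, where it also called fewer unchanged cytosines. Without v6.5 replicate 1 the calls were 10 in BS-seq and 0 in oxBS-seq (39 at an unadjusted p under 0.05), and without Tet2kd replicate 3 they were 24 and 10.

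Of the 17 cytosines called higher in BS-seq, 7 lay in Igsf21, 4 in Hsp90ab1, 3 in Pvt1, 2 in Klf3 and 1 in Letmd1. These loci held 53, 51, 44, 48 and 38 of the 591 CpA cytosines. Median coverage of a locus ran from 384 read-outs in Runx1 to 5212.5 in Stag1, with 3785 in Igsf21, and its part in the calls was not tested. Of all 18 called, 8 were CAG, 5 CAA, 3 CAC and 2 CAT, contexts with 188, 131, 159 and 113 cytosines. The genotypes did not overlap in BS-seq at 16 of the 18, but the same samples had chosen these cytosines, so this count is no separate evidence. Over all 591 CpA cytosines, 9.31% were higher and 2.88% lower in Tet2kd without overlap in BS-seq. Of the 17 called higher, 13 also had a higher Tet2kd mean in oxBS-seq, as did 314 of all 591 CpA cytosines (53.1%).

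**Figure D5:**
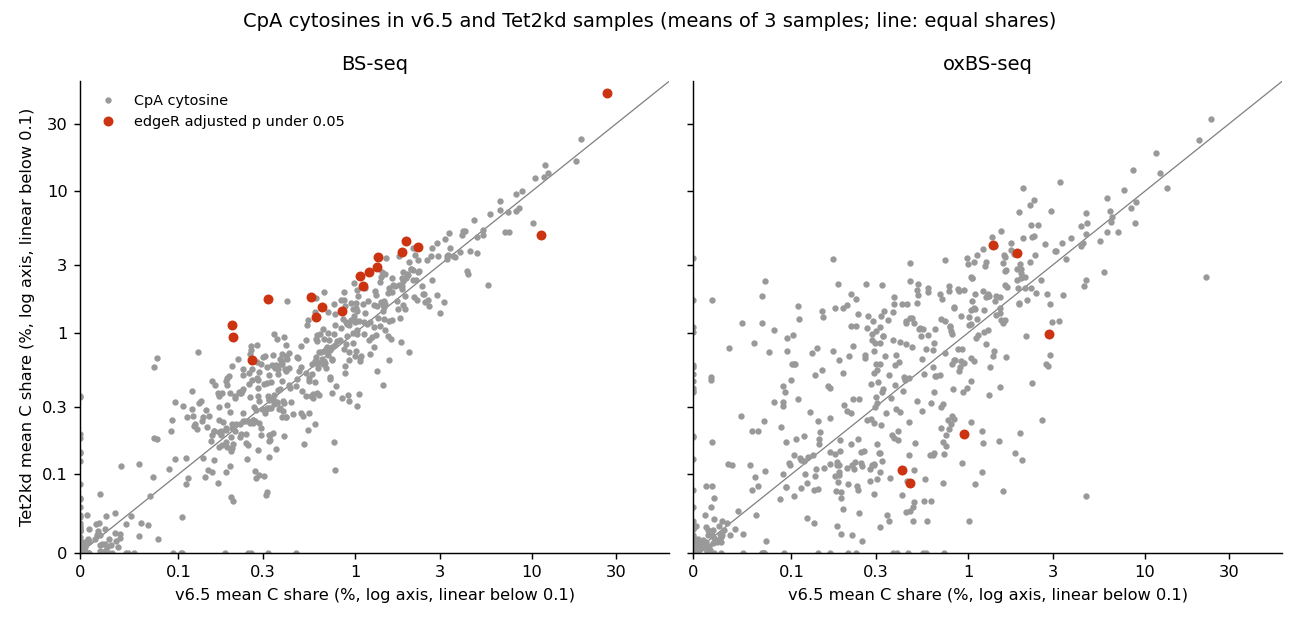
Mean C share of the 591 CpA cytosines in Tet2kd (vertical axis) against v6.5 (horizontal axis), in percent on log axes that are linear below 0.1%, for BS-seq and oxBS-seq, with the line of equal shares. Red points, 18 in BS-seq and 6 in oxBS-seq, passed the edgeR test, and the cloud is wider in oxBS-seq.

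Igsf21, which encodes an immunoglobulin superfamily protein of synapses, was the locus with the most calls. In BS-seq its mean CpA share was 0.746%, 0.675% and 0.640% in the v6.5 samples, against 0.929%, 1.13% and 1.12% in the Tet2kd samples. The oxBS-seq values were 0.628%, 0.855% and 0.663% for v6.5, against 1.17%, 1.32% and 1.06% for Tet2kd. All Tet2kd samples were above all v6.5 samples in both assays, while its CpC and CpT shares overlapped between genotypes in both. Its highest CpA cytosine, chr4:139783694, had 2.35%, 1.37% and 2.08% in v6.5 BS-seq and 4.16%, 4.23% and 4.91% in Tet2kd BS-seq (log2 ratio 1.25, edgeR adjusted p = 0.000805). In oxBS-seq v6.5 replicate 2, at 7.99%, exceeded every Tet2kd sample, which had 5.51% to 5.83%. The BS-seq CpG share of the locus went from 51.4% (v6.5) to 73.8% (Tet2kd).

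At 4 CpA cytosines the genotypes did not overlap in either assay, in the same direction: 3 were higher in Tet2kd, all in Igsf21, against 6.92% of all cytosines, and 1 was lower, against 0.0824%. At chr4:139783812 in Igsf21 the BS-seq shares were 1.24%, 1.15% and 0.943% for v6.5, against 1.65%, 2.41% and 2.34% for Tet2kd (edgeR adjusted p = 0.0184), with oxBS-seq shares of 0.496%, 1.10% and 1.35% against 3.26%, 5.00% and 1.79% (edgeR adjusted p = 0.0845). The other 2 in Igsf21, chr4:139783808 and chr4:139783759, had edgeR adjusted p of 0.167 and 0.349 in BS-seq and 0.544 and 0.0458 in oxBS-seq, so the latter, with oxBS-seq means of 1.38% in v6.5 against 4.13% in Tet2kd, was called in oxBS-seq.

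By locus mean, 5 of 12 loci were higher in every Tet2kd sample than in every v6.5 sample in BS-seq (Gm11949, Pvt1, Letmd1, Hsp90ab1 and Igsf21) and 4 of 12 in oxBS-seq (Gm11949, Pvt1, Igsf21 and N4bp1), with 0 lower in either. The 3 loci shared by both lists were Gm11949, Pvt1 and Igsf21. For CpG the same count was 10 of 12 in each assay, and for CpC and CpT together 3 of 12 in each. No locus reached an adjusted p under 0.24 in BS-seq or 0.30 in oxBS-seq (exact permutation tests, Benjamini-Hochberg over 12 loci), and none could have passed with 3 against 3 samples. In Pvt1 the BS-seq means were 1.02%, 1.06% and 1.13% for v6.5, against 1.32%, 1.31% and 1.39% for Tet2kd, and its CpC and CpT share overlapped in BS-seq but not in oxBS-seq. In Hsp90ab1 they were 0.702%, 0.741% and 0.800% against 1.00%, 1.14% and 1.16%, and its CpC and CpT share was higher in every Tet2kd sample too. Letmd1 went from 1.16% to 1.83%, but without its highest cytosine from 0.471% to 0.543%, where the genotypes overlapped and 4 loci were left without overlap. Gm11949 went from 0.448% to 0.583%, and its CpC and CpT share, 0.228% and 0.278%, was also higher in every Tet2kd sample.

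In Zbtb40 and Plcg2, with high CpG shares, the genotypes overlapped in BS-seq. Zbtb40 had 1.98% in v6.5 and 2.13% in Tet2kd and Plcg2 1.48% and 1.45%. Their CpG shares differed between genotypes by -0.460 and 1.66 percentage points, against 2.98 to 22.4 in 9 other loci. Runx1 had 1.05% in both genotypes in BS-seq, with a CpG difference of 12.2 percentage points. The genotypes also overlapped in BS-seq in Klf3, N4bp1 and Stag1, where the CpG differences were 8.39, 8.30 and 2.98 percentage points.

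BS-seq and oxBS-seq gave like mean CpA shares. The BS-seq sample exceeded the oxBS-seq sample of the same replicate by 0.0472 percentage points on average, in 4 of 6 pairs (exact sign-flip permutation test, two-sided, p = 0.25), and the excess over CpC and CpT by 0.0429, in 4 of 6 pairs (exact permutation p = 0.38). The mean of locus means gave 0.0670 (exact permutation p = 0.031). The typical cytosine did differ: the median CpA share was 0.342% to 0.451% in the BS-seq samples and 0.107% to 0.274% in the oxBS-seq samples, a difference of 0.231 percentage points (exact sign-flip permutation p = 0.031). Cytosines with no C read-out numbered 74 to 137 per BS-seq sample and 109 to 229 per oxBS-seq sample. CpG cytosines had 64.4% to 76.5% in BS-seq, against 59.9% to 73.7% in oxBS-seq.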

How the data were processed

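C and T read-outs were counted in 12 targeted libraries. Per the labels and the study's methods the authors aligned paired-end reads with Bismark 0.7.12 and Bowtie2 to mm9 with lambda, and deposited, for each cytosine, raw counts of both read-outs together with a percent C. The deposited percent equalled that from the counts. The position in the files was moved by 1 base, bases were read from mm9 and genes from GENCODE vM1. The members and lists were chosen with earlier results of these data known.

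Shares were averaged over cytosines within a sample, and samples were compared by exact permutation or sign-flip tests. C and T counts were tested per cytosine with edgeR 4.0.16 (R 4.3.3), with sample effects and a genotype effect on C, and Benjamini-Hochberg over all cytosines with at least 1 C and 1 T. The planned test did not set the dispersion. In all, 5 specifications were run on the data with their calls in view: a negative binomial dispersion first, then 4 with a quasi-Poisson dispersion. In counts simulated from the BS-seq samples (1687 cytosines, overdispersion 5e-04) the first recovered 25 of 104 odds ratios of 2 and 66 of 96 of 4, and the quasi-Poisson form with default abundance trend, which was kept, 38 and 82; unadjusted p under 0.05 was found at 5.58% and 6.86% of unchanged cytosines, so the kept form is the less strict. At an overdispersion of 0.01, used first, they recovered 0 and 0, and 4 and 19. Unadjusted p under 0.05 was then found at 4.3% and 7.92% of unchanged cytosines, and at an overdispersion of 0.0025 at 4.51% and 7.55%. No oxBS-seq counts were simulated, so these rates do not cover the wider spread of oxBS-seq replicates. Named were the loci, the 10 highest CpA cytosines, the highest of each locus and those without overlap in both assays. Nothing in the sources used here says that replicates of a genotype came from separate clones. Deviations of same-numbered v6.5 and Tet2kd samples had r of 0.0631, 0.0801 and 0.222 in BS-seq. In oxBS-seq r was -0.00393, -0.176 and -0.0746. The labels link these samples by number only, so they were not paired, and a fit with a replicate block is given as an alternative. Python 3.11.15 was used. Values of 1 of the 12 loci are not reported here by name; its cytosines are in the totals.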

Additional observations from a re-analysis of the deposited data

Results flagged for a closer look

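The mean CpA share of 2 loci moved in opposite directions between the assays in the genotypes, in every pair of samples. In Gm11949 BS-seq minus oxBS-seq was 0.0853 percentage points in v6.5 and -0.231 in Tet2kd. In N4bp1 it was 0.0478 and -0.179. The difference between genotypes was not tested, and 12 loci were examined.

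Of the loci outside the coverage or chromosome rule, 3 were summarised, and among these Gata1 and Twist2 had BS-seq CpA shares above those of the lambda control. The Itpkc and Cirh1a loci, with 27 CpA cytosines outside the rule, were not summarised. In Gata1 on chromosome X (57 cytosines) the BS-seq mean was 1.12% in v6.5 and 1.34% in Tet2kd. In Twist2 (35 cytosines) it was 1.04% and 1.02%. In Timm17b-Pqbp1 on chromosome X (38 cytosines) it was 0.105% and 0.0964%, below the lambda means.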

How the results depend on the processing

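The higher CpA than CpC and CpT mean held its direction in every setting run, as did CAC above the other CpA cytosines, but sizes varied: the excess ran from 0.205 (median) to 1.16 (at least 1000 read-outs) in BS-seq and from 0.0225 to 1.13 in oxBS-seq. Leaving out 1 replicate of 6 keeps p from passing by construction, with excesses of 0.724 to 0.755 percentage points (BS-seq) and 0.648 to 0.722 (oxBS-seq), and CAC differences of 0.678 to 0.746 and 0.651 to 0.760. The CAG difference had no stable sign. Without 1 replicate it ran from -0.0189 to 0.0268 (BS-seq) and from -0.0702 to 0.0233 (oxBS-seq). In BS-seq it was -0.476 with at least 1000 read-outs, -0.159 with summed read-outs, -0.00623 away from covered ends and 0.134 by median. In oxBS-seq it was 0.100 with at least 100 read-outs, -0.416 with 1000, 0.0320 without cytosines reaching 10%, 0.0661 by median, 0.0338 by locus means, and, in settings added after the data were seen, 0.0709 without Runx1 and 0.0552 without the highest CpA. By median, Tet2kd minus v6.5 in oxBS-seq was -0.0449 (share) and -0.0544 (excess), and BS-seq minus oxBS-seq was 0.231 (share) and 0.182 (excess); by locus means the last share was 0.0670. The cause was not tested. With at least 1000 read-outs, which leaves fewer cytosines, 2 loci (BS-seq) and 1 locus (oxBS-seq) were higher in every Tet2kd sample.

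Calls per cytosine depended on the test. Besides 18 and 6 (BS-seq, oxBS-seq), a threshold of 0.01 gave 9 and 0 (57 at an unadjusted p under 0.05 in oxBS-seq), Fisher's exact test on summed read-outs, which ignores the spread between replicates, 125 and 258, and quasi-binomial regression 8 and 4. The first edgeR specification, a negative binomial dispersion, gave 5 and 0 (33 unadjusted in oxBS-seq); the 3 other quasi-Poisson ones gave 16 to 19 and 5 to 7. A replicate block gave 28 and 11, where the labels link same-numbered samples by number only. Leaving out 1 replicate gave 10 to 25 and 0 to 10. The replicate block changed no direction of a share. Permutation tests of 3 against 3 cannot pass, so they say nothing of stability. The planned CpA contrast within lambda was not run, since the lambda bases were not used here; the lambda mean as background, added later, kept every direction.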
